A study of Mus musculus with 6 samples.

Results

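Liver breaks down most amino acids that the body does not use for protein, and 41 genes of these routes are described here. They were taken by symbol, as every gene on a list of enzymes for the breakdown of tyrosine, tryptophan, serine and threonine, histidine, methionine, alanine and aspartate, proline and ornithine, lysine, branched-chain amino acids, and glycine. All 41 were found among the 24421 genes of the count tables, and all 41 had enough reads to be tested, among 12622 genes tested. Every library held at least 64 reads of each of the 41.

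RNA from liver was sequenced in 6 libraries, 3 from SS and 3 from AS mice, all labelled 7 months of age. These are Townes mice, a line whose own globin genes were replaced by human ones, and both genotypes carry the human alpha-globin allele Hbatm1(HBA)Tow. SS mice, the model of sickle cell disease, carry the sickle beta-globin allele Hbbtm2(HBG1,HBB*)Tow and no other beta-globin allele. AS mice carry that allele together with Hbbtm3(HBG1,HBB)Tow, which holds a normal human beta-globin gene, so they are carriers of the sickle allele and not mice with mouse globin. The series title concerns bile secretion and liver injury in sickle cell disease, and the comparison here asks how enzyme transcripts for amino acid breakdown differed between the genotypes. Neither sex nor batch is labelled, and whether replicates are separate animals is not stated. A p-value here sets the difference between genotypes against the spread among these libraries, which may thus be technical.

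Most breakdown routes begin by moving the amino group to a keto acid or by releasing it as ammonia, which periportal hepatocytes turn into urea. The carbon skeletons then go to pyruvate, to intermediates of the citric acid cycle or to acetyl-CoA, and serve as fuel or for making glucose. Several of these enzymes are nearly liver-specific, and glucagon and glucocorticoids are known to raise the transcripts of some of them in fasting, Tat, Tdo2 and Sds among them. Inherited loss of single members causes human diseases such as tyrosinemia (Fah), maple syrup urine disease (Bckdha, Bckdhb and Dbt) and nonketotic hyperglycinemia (Gldc and Amt).

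The upstream sequences of the 4 genes with the lowest p among the 41, Sugct, Gldc, Sardh and Hal, are shown because these genes carry the clearest differences below. Each is the 150 bases before the RefSeq start of transcription on GRCm38.p6, read 5′ to 3′ on the gene's strand. Capitals mark matches, on either strand, to the TATA box letters TATAAA or the C/EBP site letters TTGCNNAA.
Sugct: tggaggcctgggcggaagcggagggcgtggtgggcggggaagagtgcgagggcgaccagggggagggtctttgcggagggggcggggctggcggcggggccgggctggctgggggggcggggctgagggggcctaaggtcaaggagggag
Gldc: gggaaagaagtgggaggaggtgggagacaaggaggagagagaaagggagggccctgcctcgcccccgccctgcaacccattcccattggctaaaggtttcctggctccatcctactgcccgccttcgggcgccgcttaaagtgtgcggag
Sardh: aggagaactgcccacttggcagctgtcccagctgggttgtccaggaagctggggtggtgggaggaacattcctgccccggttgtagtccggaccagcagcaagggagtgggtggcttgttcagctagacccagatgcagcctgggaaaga
Hal: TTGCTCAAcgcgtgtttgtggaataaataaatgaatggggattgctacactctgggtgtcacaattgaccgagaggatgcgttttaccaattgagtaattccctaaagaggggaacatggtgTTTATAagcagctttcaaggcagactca
These windows lie at chr13:17694766-17694915 (minus strand, Sugct), chr19:30175442-30175591 (minus strand, Gldc), chr2:27247304-27247453 (minus strand, Sardh) and chr10:93488618-93488767 (plus strand, Hal). The Hal window holds both motifs, while the windows of Sugct, Gldc and Sardh hold no match. RefSeq start regions were found for 33 of the 41 genes, and 6 motifs were searched from 250 bases before to 50 bases after the start, on both strands, in these and in all 32851 regions of the table. TATAAA was found in 12.1% of the 33 regions and 13.6% of all regions, TTGCNNAA in 15.2% and 10.8%, the HNF1 letters GTTAAT in 9.09% and 7.10%, and the glucocorticoid receptor letters TGTTCT in 12.1% and 18.97%. The HNF4 letters CAAAGTCCA and the cyclic AMP response element TGACGTCA were in 0 of the 33 regions and in 0.475% and 1.79% of all. These are letter matches and say nothing of binding.

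Gene reads per library ran from 6971289 to 13700194 in SS and from 6670011 to 12658869 in AS. The hepatocyte markers (Alb, Ttr, Apob and 7 others) took 11.8% to 15.5% of gene reads in SS and 12.2% to 16.4% in AS. SS replicate 3 and AS replicate 1 stood apart from the others of their genotype. AS replicates 2 and 3 were the closest to each other (chi-square per gene 3.60, and 22.3 to 131.6 between any other libraries), still above sampling noise, and were counted as 2 libraries. The 22.3 was between SS replicate 1 and AS replicate 2, and SS replicates 1 and 2 stood at 26.4. This distance was taken on raw counts and grows with the reads of both libraries. SS replicate 1 (6971289) and AS replicate 2 (6670011) had the fewest reads, and SS replicate 2 (13700194) the most. The order of 22.3 and 26.4 therefore cannot show whether libraries group by genotype. Values below are CPM, read counts brought to a common library size with TMM factors, and the values of a genotype are listed by replicate number, 1, 2 and 3.

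All 41 genes had a lower fitted value in SS than in AS, though 37 did so when libraries were scaled by their totals alone and 35 when they were scaled by hepatocyte markers. A lower fitted value was found in 43.7% of all genes tested, and in 81.5% of the 1477 genes that averaged 100 CPM or more, a level that 37 of the 41 reach. The median log2 fold change of the 41 was -0.53, against 0.08 over all genes and -0.34 over the other genes of at least 100 CPM. Scaling by totals moved the median of all genes to 0.36 and scaling by hepatocyte markers to 0.42. Relative to that median the 41 stood at -0.61 with TMM factors, -0.62 with totals and -0.65 with hepatocyte markers. Scaling shifts all genes nearly alike, so this difference was bound to change little and is no check on the scaling. Relative to the other genes of at least 100 CPM, the 41 stood at -0.19 with TMM factors. Together the 41 genes summed to 21932 to 25319 CPM in SS libraries and 29009 to 37930 CPM in AS libraries, ranges that did not overlap with TMM factors. As a share of gene reads, with no such factors, they took 2.21% to 3.06% in SS and 2.42% to 3.54% in AS, which overlapped through AS replicate 1 at 2.42%.

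With edgeR's quasi-likelihood F-test, adjusted by Benjamini-Hochberg over all 12622 genes, 1 of the 41, Sugct, was called lower in SS at an adjusted p under 0.05, and 0 were called higher. Over all genes, 0.0555% were called lower and 0.911% higher. At an unadjusted p under 0.05, 15 of the 41 were lower in SS and 0 higher, where 3.58% of all genes were lower. Every SS library lay below every AS library in 24 of the 41, whose groups are called apart below, a pattern found in 9.04% of all genes and in 31.3% of those of at least 100 CPM. DESeq2 called 7 of the 41 lower and 0 higher (Sugct, Gldc, Sardh, Hal, Bhmt, Dmgdh and Amt), where it called 0.737% of all genes lower. No test was made of the 41 as a list.

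**Figure D1:**
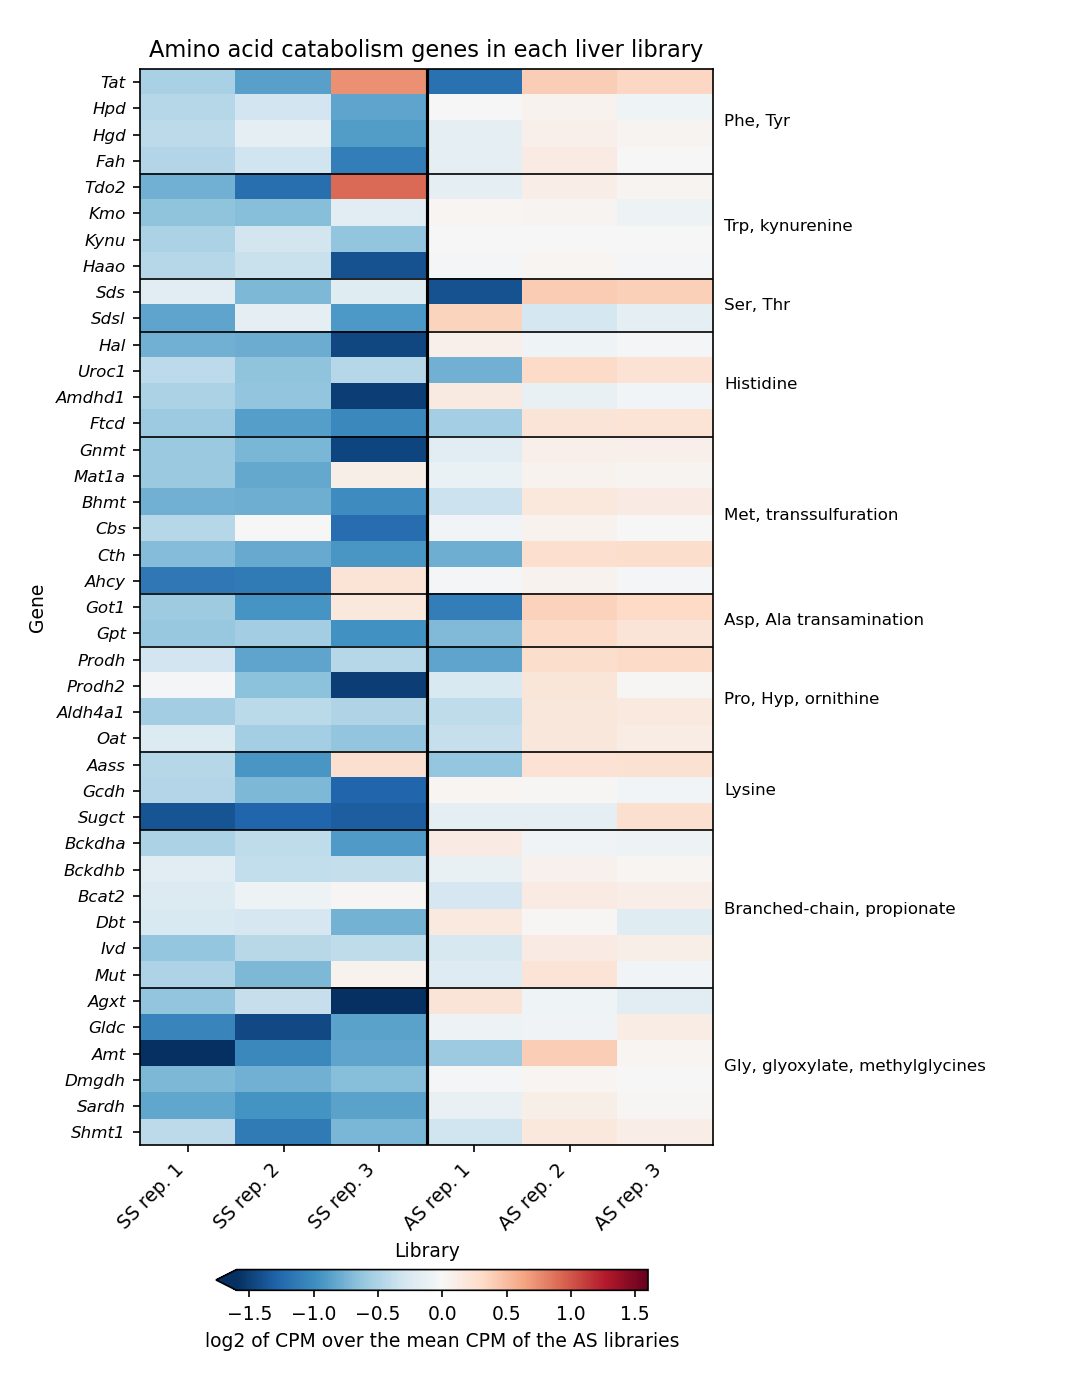
Each row is a gene and each column a liver library (SS left, AS right), and colour gives the log2 of its CPM over the mean CPM of the AS libraries, with blue for lower and red for higher; values past the end of the scale take its end colour. Most SS squares are blue, SS replicate 3 is red for Tat and Tdo2, and AS replicate 1 is blue for Tat, Sds and Got1.

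In 6 of 6 enzymes of glycine, glyoxylate and the methylglycines, every SS library lay below every AS library. Their CPM summed to 1271 to 1617 in SS and 2631 to 2751 in AS, and their median log2 fold change was -0.88. At an unadjusted p under 0.05, 5 of the 6 were lower in SS and Agxt missed it, while edgeR called none of the 6 after adjustment. DESeq2 called Gldc, Amt, Dmgdh and Sardh. Over all genes, every SS library lay below every AS library in 9.04%, and in 31.3% of those of at least 100 CPM. At an unadjusted p under 0.05, 3.58% of all genes were lower, and DESeq2 called 0.737% lower. These shares are also the background for the pathway counts below.

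Gldc and Amt encode parts of the mitochondrial glycine cleavage system, which splits glycine into carbon dioxide, ammonia and a folate-bound carbon. Gldc, the glycine decarboxylase, had 77.5, 58.7 and 88.3 CPM in SS libraries, against 152, 155 and 174 CPM in AS libraries. The highest SS library was thus well below the lowest AS library, with a log2 fold change of -1.10 (SE 0.247, adjusted p = 0.0768), and DESeq2's adjusted p was 0.00136. Amt, the aminomethyltransferase, had 12.9, 21.5 and 24.5 CPM in SS libraries, against 29.3, 57.5 and 45.1 CPM in AS libraries. Its libraries varied more, SS replicate 1 and AS replicate 1 being the lowest of their genotypes, and its log2 fold change was -1.16 (SE 0.334, adjusted p = 0.172), with 0.0316 by DESeq2. Gldc lies at chr19:30098447-30175429 and Amt at chr9:108296853-108302302, positions on mm10 like those below.

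Sardh and Dmgdh are mitochondrial flavoproteins that strip methyl groups from sarcosine and dimethylglycine on the way from choline to glycine. Sardh had 515, 473 and 505 CPM in SS libraries, against 845, 976 and 926 CPM in AS libraries. The groups were tight and apart, averaging 497 ± 22.1 CPM in SS and 916 ± 66.0 CPM in AS (SD, n = 3 each), with a log2 fold change of -0.88 (SE 0.243, adjusted p = 0.151) and 0.00347 by DESeq2. Dmgdh had 322, 311 and 331 CPM in SS libraries, against 519, 542 and 524 CPM in AS libraries. Within each genotype its libraries differed by little, and its log2 fold change was -0.72 (SE 0.236, adjusted p = 0.243), or 0.0260 by DESeq2. An antisense gene whose exons overlap 6.30% of the exon bases of Dmgdh, AW495222, was itself called lower in SS (log2 fold change -1.25, adjusted p = 0.0472), and Sardh, at chr2:27188393-27248337, shares 3.46% with the antisense Sardhos. Strand settings of the counting are not given in the sources used here, so how reads from the shared bases were counted is not known.

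Shmt1, the cytosolic enzyme that swaps a carbon between serine and glycine, had 190.3, 116 and 152 CPM in SS libraries, against 203, 285 and 273 CPM in AS libraries. AS replicate 1 lay just above SS replicate 1, and the log2 fold change was -0.73 (SE 0.278, adjusted p = 0.316). Agxt, the peroxisomal aminotransferase that turns glyoxylate into glycine and whose loss causes primary hyperoxaluria in humans, had 499, 598 and 171 CPM in SS libraries, against 895, 737 and 687 CPM in AS libraries. SS replicate 3 was far the lowest library, at 0.311 times the mean of the other SS libraries. Its log2 fold change was -0.87 (SE 0.409, adjusted p = 0.411), with a 95% interval -1.78 to 0.03.

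Methyl groups reach glycine from methionine, and the 6 genes of methionine breakdown and transsulfuration had a median log2 fold change of -0.67. Gnmt, Bhmt and Cth were lower in SS at an unadjusted p under 0.05, and the groups were apart for Gnmt and Bhmt. Mat1a, which makes the methyl donor S-adenosylmethionine, had 2579, 2214 and 4170.2 CPM in SS libraries, against 3617, 4074 and 4031 CPM in AS libraries. SS replicate 3 lay above all AS libraries and SS replicates 1 and 2 below them, and the log2 fold change was -0.39 (SE 0.302, adjusted p = 0.611). Gnmt, which methylates glycine to sarcosine and so uses up excess S-adenosylmethionine, had 1924, 1752 and 1051 CPM in SS libraries, against 2593, 3065 and 3063 CPM in AS libraries. All SS libraries lay below all AS libraries, and the log2 fold change was -0.88 (SE 0.299, adjusted p = 0.254), with a 95% interval -1.55 to -0.22.

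Ahcy clears the S-adenosylhomocysteine left by methyl transfer, and had 364, 368 and 938 CPM in SS libraries, against 785, 838 and 788 CPM in AS libraries. SS replicates 1 and 2 lay below every AS library and SS replicate 3 above them all, so that its log2 fold change of -0.53 had an SE of 0.375 and an adjusted p of 0.575. Bhmt remakes methionine from homocysteine with betaine and yields the dimethylglycine that Dmgdh takes up. It had 2779, 2759 and 2352 CPM in SS libraries, against 3727, 5312 and 5186 CPM in AS libraries. Even the lowest AS library exceeded every SS library, and the log2 fold change was -0.85 (SE 0.271, adjusted p = 0.221), with 0.0215 by DESeq2. Bhmt and Dmgdh lie 36.47 kb apart on chromosome 13.

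Cbs and Cth carry the sulfur of homocysteine on to cysteine. Cbs had 427, 591 and 254 CPM in SS libraries, against 569, 610.2 and 585 CPM in AS libraries, and its lowest library was SS replicate 3. Cth had 444, 412 and 377 CPM in SS libraries, against 418, 869 and 873 CPM in AS libraries. AS replicate 1 was at the level of the SS libraries while AS replicates 2 and 3 lay above them all. Their log2 fold changes were -0.47 (SE 0.319, adjusted p = 0.556) for Cbs and -0.81 (SE 0.319, adjusted p = 0.330) for Cth.

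**Figure D2:**
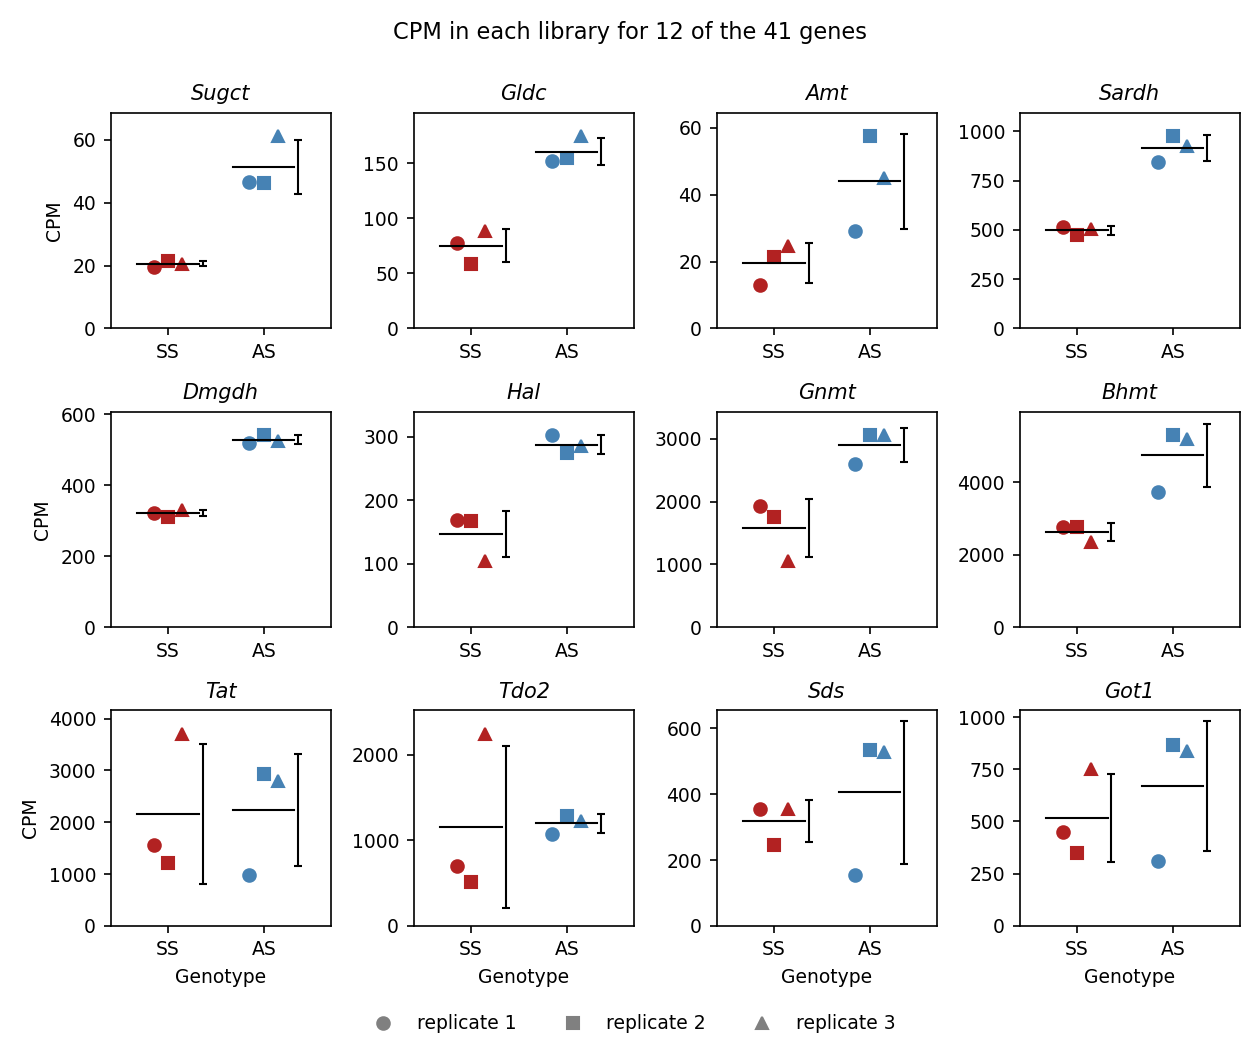
CPM of 12 genes in each library, SS left and AS right in each panel; symbols mark replicates, horizontal lines the means and bars the SD (n = 3 each), and every vertical axis starts at 0. The groups do not overlap for Sugct, Gldc, Amt, Sardh, Dmgdh, Hal, Gnmt and Bhmt, and they overlap for Tat, Tdo2, Sds and Got1. The former are the 7 genes that DESeq2 called lower and Gnmt. That choice favours genes whose groups are apart, as they were in 24 of the 41. The last 4 were drawn, after their values were seen, to show single libraries that stand apart.

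Histidine breakdown had a median log2 fold change of -0.82 over its 4 genes, with 3 lower in SS at an unadjusted p under 0.05 and the same 3 with groups apart. Hal, the histidine ammonia-lyase that starts the route, had 168, 166 and 105 CPM in SS libraries, against 303, 274 and 285 CPM in AS libraries. The averages were 146 ± 36.1 CPM in SS and 287 ± 14.5 CPM in AS (SD, n = 3 each), 49.0% lower in SS by the fit, and the log2 fold change was -0.97 (SE 0.269, adjusted p = 0.152), with 0.0164 by DESeq2. Uroc1, the urocanate hydratase of the next step, had 293, 251 and 287 CPM in SS libraries, against 231, 487 and 461 CPM in AS libraries. AS replicate 1 was the lowest of all 6 libraries, and the log2 fold change was -0.50 (SE 0.313, adjusted p = 0.519).

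Amdhd1, the imidazolonepropionase of the third step, had 192, 176 and 95.7 CPM in SS libraries, against 301, 252 and 265 CPM in AS libraries. Its neighbour Hal ends 4.034 kb away on chromosome 10, on the other strand, and both genes had their lowest value in SS replicate 3 and their highest in AS replicate 1. Ftcd, which passes the last carbon to folate, had 344, 279 and 253 CPM in SS libraries, against 353, 594 and 598 CPM in AS libraries. The gap between groups was narrow, set by SS replicate 1 and AS replicate 1. Log2 fold changes were -0.82 (SE 0.300, adjusted p = 0.293) for Amdhd1 and -0.82 (SE 0.292, adjusted p = 0.280) for Ftcd.

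Lysine breakdown holds the gene that passed the test after adjustment. Sugct, a mitochondrial enzyme that moves CoA from succinyl-CoA to glutarate and so returns stray glutarate to the route, fell in SS liver. It had 19.7, 21.3 and 20.6 CPM in SS libraries, against 46.5, 46.2 and 61.2 CPM in AS libraries. SS libraries were almost identical to each other, averaging 20.5 ± 0.831 CPM in SS and 51.3 ± 8.54 CPM in AS (SD, n = 3 each), 60.0% lower in SS by the fit. The log2 fold change was -1.32 (SE 0.243, adjusted p = 0.0380), with a 95% interval -1.86 to -0.78, and DESeq2 gave -1.36 and an adjusted p of 0.000138. The call was lost on leaving out any library but SS replicate 3, in 5 of 6 cases (adjusted p 0.0916 to 0.220), with totals alone, with hepatocyte markers, with limma-voom and with AS replicates 2 and 3 summed, while the log2 fold change ran from -1.41 to -1.02 over all settings. Sugct lies at chr13:16857472-17695553, and 5.72% of its exon bases overlap the antisense gene Mplkip.

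Gcdh oxidizes the glutaryl-CoA that Sugct forms, and its loss causes glutaric aciduria in humans. It had 683, 576 and 393 CPM in SS libraries, against 966, 960.1 and 918 CPM in AS libraries. AS libraries were close together and all above the SS libraries, with a log2 fold change of -0.78 (SE 0.279, adjusted p = 0.281) and an unadjusted p of 0.0177. Aass, a single protein that carries out the opening steps of the route, had 254, 183 and 418 CPM in SS libraries, against 226, 407 and 412 CPM in AS libraries. Here the groups overlapped, SS replicate 3 being the highest of all, and the log2 fold change was -0.29 (SE 0.359, adjusted p = 0.756).

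Tyrosine breakdown had a median log2 fold change of -0.48 over 4 genes, none of them lower at an unadjusted p under 0.05 and 3 of them with groups apart. Tat, the aminotransferase that starts it, had 1566, 1220.3 and 3713 CPM in SS libraries, against 979.6, 2926 and 2804 CPM in AS libraries. The highest library was SS replicate 3 and the lowest AS replicate 1, so the means nearly matched, 2166 ± 1351 CPM in SS and 2237 ± 1090.3 CPM in AS (SD, n = 3 each). Its log2 fold change was -0.05 (SE 0.492, adjusted p = 0.979), with a 95% interval -1.13 to 1.04, and it turned positive with totals (0.25) and hepatocyte markers (0.30).

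Hpd makes homogentisate, Hgd opens its ring, and Fah cuts the last intermediate into fumarate and acetoacetate. Hpd had 2221, 2467 and 1694 CPM in SS libraries, against 3042, 3167 and 2911 CPM in AS libraries, for a log2 fold change of -0.51 (SE 0.265, adjusted p = 0.447). Hgd had 645, 776 and 464 CPM in SS libraries, against 779, 912 and 884 CPM in AS libraries, for -0.45 (SE 0.276, adjusted p = 0.513). The groups were apart in both. Fah had 899, 993 and 578 CPM in SS libraries, against 1130.5, 1366 and 1236 CPM in AS libraries, with -0.60 (SE 0.285, adjusted p = 0.421). In each of Hpd, Hgd and Fah, the lowest library was SS replicate 3, the library with the most Tat.

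Tryptophan breakdown had a median log2 fold change of -0.48 over 4 genes, with 0 at an unadjusted p under 0.05. Tdo2, the dioxygenase that opens the ring, overlapped between genotypes, while Kmo, Kynu and Haao further down the route were apart. Tdo2 had 702, 518 and 2249 CPM in SS libraries, against 1074, 1289 and 1232 CPM in AS libraries. SS replicate 3 held 3.69 times the mean of the other SS libraries, which were both below every AS library, and the log2 fold change was -0.05 (SE 0.478, adjusted p = 0.977), with a 95% interval -1.11 to 1.01, and it was positive with totals (0.29) and hepatocyte markers (0.40). Kmo hydroxylates kynurenine, Kynu cleaves the product and Haao makes the precursor of quinolinate and NAD. Haao had 472, 504 and 245 CPM in SS libraries, against 639, 661 and 639.6 CPM in AS libraries. AS libraries were nearly equal and SS replicate 3 was at 0.502 times the mean of the other SS libraries, and the log2 fold change was -0.67 (SE 0.308, adjusted p = 0.406).

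Kmo had 173, 169.6 and 239 CPM in SS libraries, against 278, 279 and 256 CPM in AS libraries, and Kynu had 128, 148 and 117 CPM in SS libraries, against 181, 183 and 182 CPM in AS libraries. The AS values of Kynu were nearly equal and all SS values lay under them, with a log2 fold change of -0.47 (SE 0.231, adjusted p = 0.425), next to -0.48 (SE 0.252, adjusted p = 0.454) for Kmo.

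Serine and threonine are deaminated by Sds, which sends serine to pyruvate, and by its relative Sdsl. Sds had 356, 246 and 354 CPM in SS libraries, against 154, 536 and 527 CPM in AS libraries. AS replicate 1 held 0.290 times the mean of the other AS libraries, the lowest such ratio among the 41, and the SS values lay between; the log2 fold change was -0.35 (SE 0.423, adjusted p = 0.752). Sdsl had 8.45, 13.6 and 7.98 CPM in SS libraries, against 19.3, 12.4 and 13.7 CPM in AS libraries. Its AS replicate 2 lay below SS replicate 2, so groups overlapped, and the log2 fold change was -0.59 (SE 0.336, adjusted p = 0.489). Sdsl and Sds lie 3.716 kb apart on chromosome 5, and 29.6% of the exon bases of Sds overlap antisense genes.

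The aminotransferases Got1 and Gpt, measured in blood as AST and ALT when liver is injured, link aspartate and alanine to the citric acid cycle and pyruvate. Got1 had 451, 348 and 753 CPM in SS libraries, against 312, 865 and 837 CPM in AS libraries. Gpt had 381, 395 and 296 CPM in SS libraries, against 354, 714 and 670.3 CPM in AS libraries. In both, AS replicate 1 lay within or below the SS libraries while AS replicates 2 and 3 lay above them all. The log2 fold change was -0.38 (SE 0.419, adjusted p = 0.730) for Got1 and -0.70 (SE 0.314, adjusted p = 0.393) for Gpt, whose unadjusted p was 0.0495.

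Proline, hydroxyproline and ornithine are turned into glutamate or glyoxylate by mitochondrial enzymes, 4 of which are on the list, with a median log2 fold change of -0.50 and none at an unadjusted p under 0.05. Oat, the ornithine aminotransferase, had 1590.1, 1276 and 1197 CPM in SS libraries, against 1442, 2103 and 2020.0 CPM in AS libraries. AS replicate 1 lay below SS replicate 1, and the log2 fold change was -0.45 (SE 0.275, adjusted p = 0.511). Prodh2, which starts hydroxyproline breakdown, had 295, 192 and 106 CPM in SS libraries, against 254, 345 and 304 CPM in AS libraries. SS replicate 3 was at 0.434 times the mean of the other SS libraries, and the log2 fold change was -0.61 (SE 0.356, adjusted p = 0.499).

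Prodh, the proline dehydrogenase, had 230.4, 158 and 207 CPM in SS libraries, against 158, 344 and 349.6 CPM in AS libraries, and its AS replicate 1 was level with its lowest SS library. Aldh4a1, which acts in both routes and forms glutamate or hydroxyglutamate, had 358, 389 and 377 CPM in SS libraries, against 398, 596 and 587 CPM in AS libraries. Groups were apart for Aldh4a1 by a narrow gap at AS replicate 1. Log2 fold changes were -0.52 (SE 0.335, adjusted p = 0.539) for Prodh and -0.49 (SE 0.262, adjusted p = 0.462) for Aldh4a1, although 32.5% of the exon bases of Aldh4a1 also belong to Gm21969 on the same strand.

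Branched-chain amino acids and propionate had the median nearest 0 of the 10 pathways, a log2 fold change of -0.38 over 6 genes, with 4 apart and 1 lower at an unadjusted p under 0.05. Bckdha, a subunit of the decarboxylase that commits the branched-chain keto acids to breakdown, had 265, 283 and 201 CPM in SS libraries, against 412, 360.0 and 354 CPM in AS libraries. Its log2 fold change was -0.59 (SE 0.254, adjusted p = 0.376), with an unadjusted p of 0.0420, but 61.7% of its exon bases overlap the antisense gene B3gnt8, itself at 1.54 CPM in SS and 0.856 CPM in AS. Bckdhb, the partner subunit, had 137, 116 and 117 CPM in SS libraries, against 141, 161 and 157 CPM in AS libraries, and Dbt, the core of the complex, had 134, 131 and 93.5 CPM in SS libraries, against 177, 160.3 and 139 CPM in AS libraries. Groups were apart for both, with log2 fold changes of -0.31 (SE 0.228, adjusted p = 0.588) and -0.41 (SE 0.251, adjusted p = 0.516).

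Ivd, the leucine-route dehydrogenase, had 114, 128 and 132 CPM in SS libraries, against 147, 193 and 187 CPM in AS libraries, again apart, with a log2 fold change of -0.49 (SE 0.238, adjusted p = 0.425). Mut, the mutase that brings propionate carbons into the citric acid cycle, had 99.2, 84.8 and 145 CPM in SS libraries, against 121, 163 and 135 CPM in AS libraries, and its groups overlapped, with a log2 fold change of -0.35 (SE 0.272, adjusted p = 0.613). Bcat2, the mitochondrial aminotransferase that acts mainly outside hepatocytes, had 41.6, 45.7 and 49.2 CPM in SS libraries, against 40.3, 53.0 and 51.9 CPM in AS libraries. Its log2 fold change was -0.09 (SE 0.233, adjusted p = 0.892), with a 95% interval -0.60 to 0.43. Smaller exon overlaps with antisense genes were 15.95% in Bcat2, 4.74% in Shmt1, 3.25% in Bhmt and 2.51% in Mut. In all, 10 of the 41 shared exon bases with another gene. Bcat2, Mut and Bckdhb turned to positive values with hepatocyte marker scaling, 0.22, 0.02 and 0.01.

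**Figure D3:**
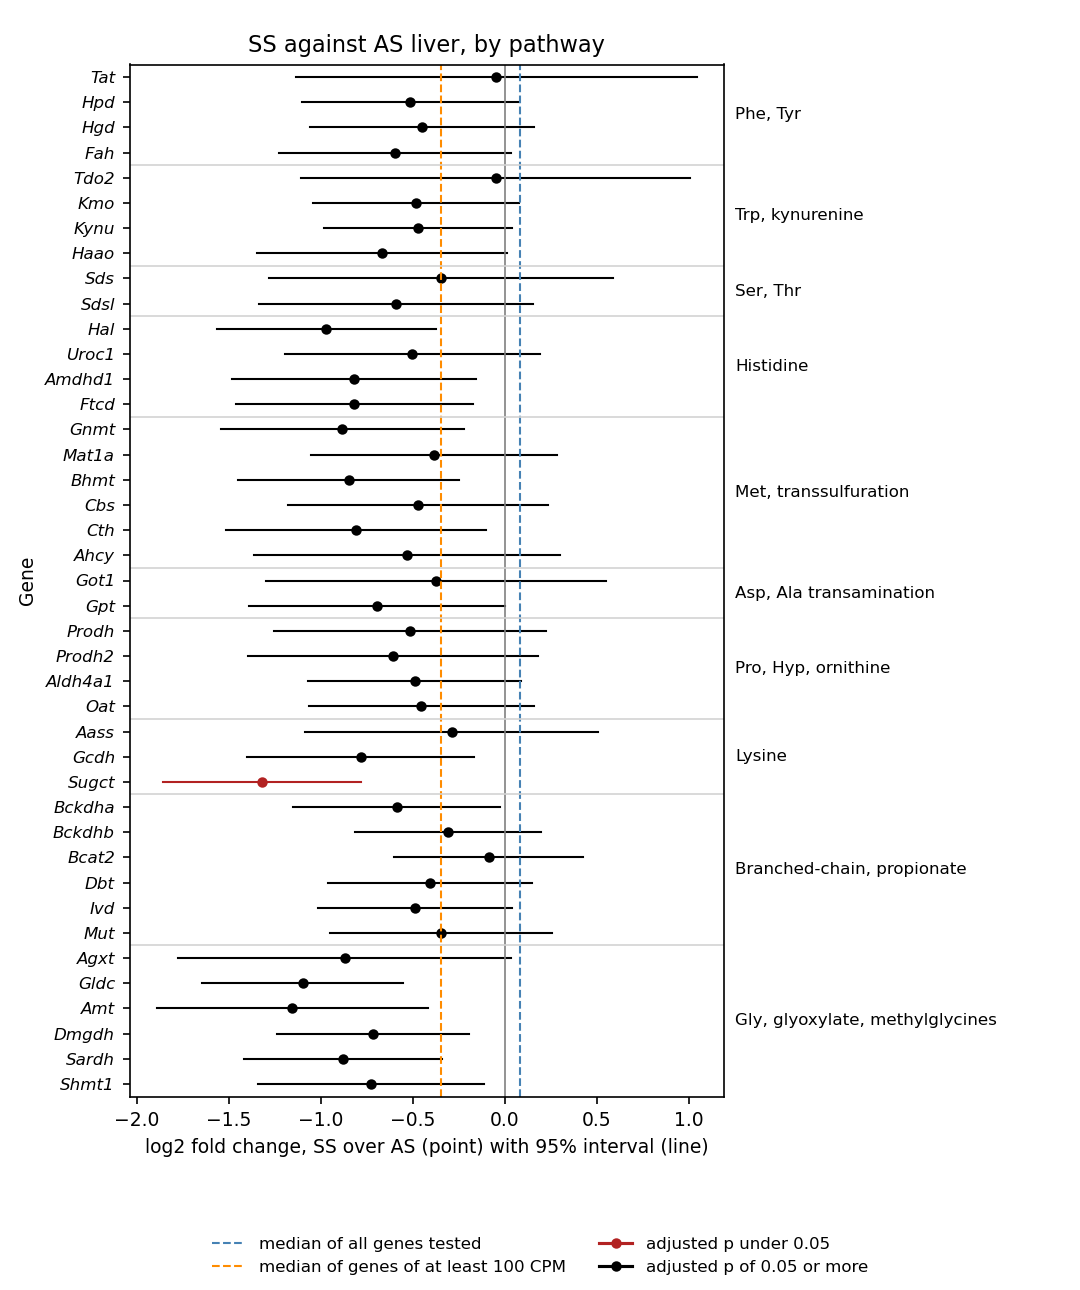
Points give the log2 fold change of each gene, SS over AS, and lines its 95% interval from edgeR; the dashed lines mark the median of all genes tested (0.08) and of genes of at least 100 CPM (-0.35). All 41 points lie left of 0, 15 intervals lie wholly below 0, and Sugct, in red, is the gene called after adjustment.

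Within a genotype, the 41 genes did not all vary together. AS replicate 1 was at least 1.5-fold under the mean of the other AS libraries in 10 genes (Tat, Sds, Uroc1, Ftcd, Cth, Got1, Gpt, Prodh, Aass and Amt), and in 16 it did not exceed every SS library. SS replicate 3 was at least 1.5-fold over the mean of the other SS libraries in 7 genes (Tat, Tdo2, Mat1a, Ahcy, Got1, Aass and Mut) and under that mean by as much in 10 (Hgd, Fah, Haao, Hal, Amdhd1, Gnmt, Cbs, Prodh2, Gcdh and Agxt). It was the lowest of all 6 libraries in 20 genes and the highest in 5. AS replicate 2, by contrast, was the highest in 24 genes and the lowest in 0. The 1.5-fold limit was chosen after the values were seen.

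**Figure D4:**
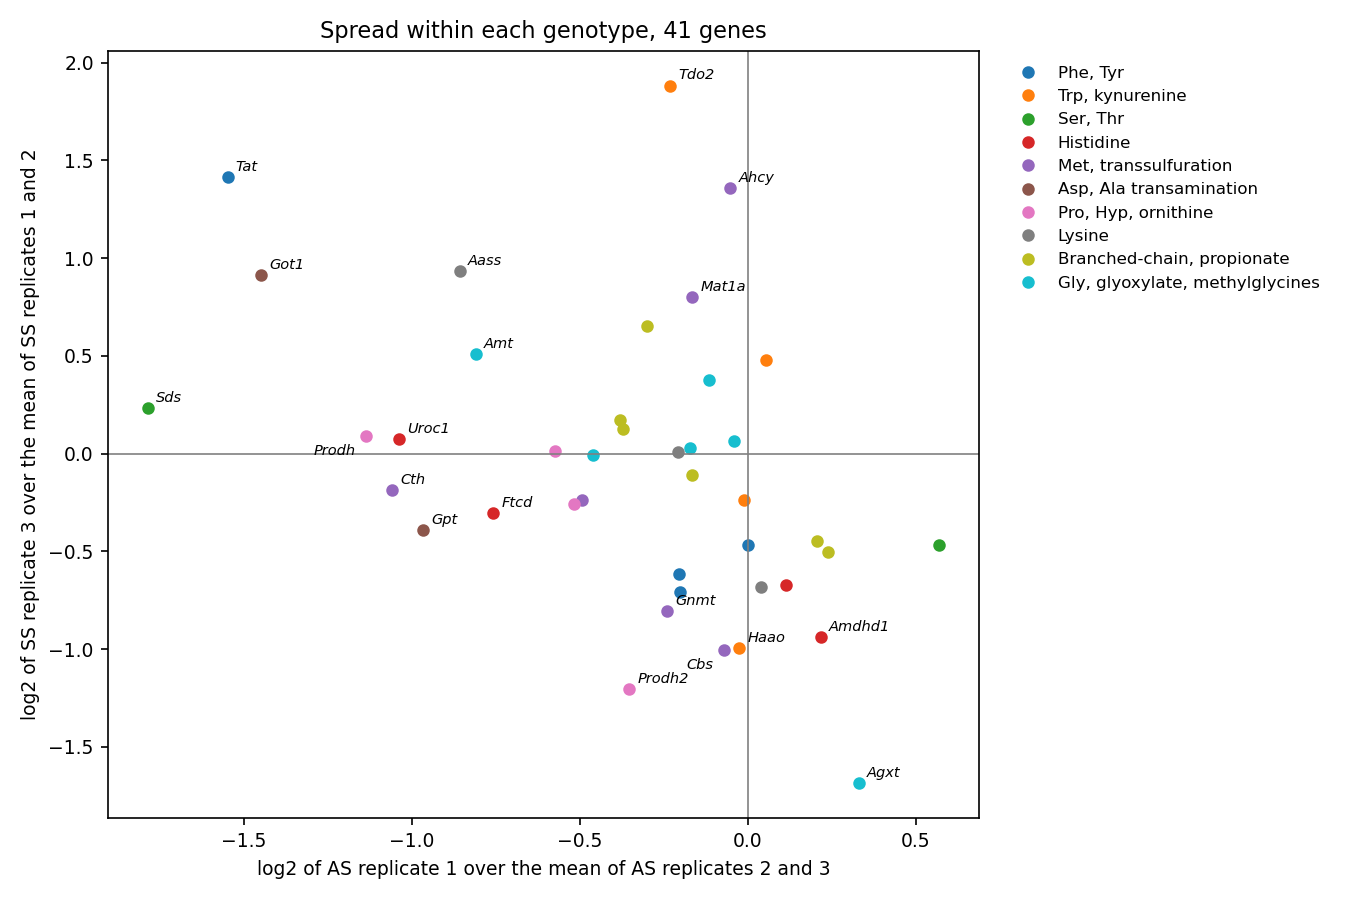
Each point is a gene, coloured by pathway; the horizontal axis gives the log2 of AS replicate 1 over the mean of AS replicates 2 and 3, and the vertical axis the log2 of SS replicate 3 over the mean of SS replicates 1 and 2. Tat and Got1 lie at the upper left (AS replicate 1 low, SS replicate 3 high), Tdo2 and Ahcy at the top, Sds at the far left and Agxt at the bottom right.

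Outside the list, Pck1, the gluconeogenic enzyme that fasting raises, had 1639, 1614 and 2815 CPM in SS libraries, against 1286, 3743 and 3731 CPM in AS libraries. AS replicate 1 was lowest and SS replicate 3 highest of its genotype, as for Tat and Got1. Among the other periportal markers tested, Cps1 and Arg1 shared that order, and Gls2, Cyp2f2, Hsd17b13 and Cdh1 did not. The part of Pck1 in the differences was not tested, and the labels do not give feeding state or hour. Without AS replicate 1 and SS replicate 3, a setting chosen because these libraries stand apart, 24 of the 41 were called lower in SS and 0 higher, where 2.49% of all genes were called lower. The median log2 fold change of the 41 was then -0.74. AS replicate 1 was the lowest AS library in 31 of the 41 genes, so leaving it out lowers their fold changes by construction. Leaving out libraries that stand apart also removes spread, and the AS libraries left, replicates 2 and 3, were the closest of any pair. The SE of this fit thus understates the spread among replicates, and its adjusted p are too low for the same reason. These calls rest on the choice of libraries.

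In that fit of 2 SS and 2 AS libraries, Ahcy had a log2 fold change of -1.15 (SE 0.134, adjusted p = 0.00338), Tat -1.04 (SE 0.149, adjusted p = 0.00837), Tdo2 -1.05 (SE 0.165, adjusted p = 0.0111) and Got1 -1.09 (SE 0.158, adjusted p = 0.00890). With all 6 libraries the same genes stood at -0.53, -0.05, -0.05 and -0.38, with SE of 0.375, 0.492, 0.478 and 0.419. Sugct had -1.39 (SE 0.209, adjusted p = 0.00979), Gldc -1.28 (SE 0.186, adjusted p = 0.00890), Sardh -0.95 (SE 0.134, adjusted p = 0.00811) and Bhmt -0.92 (SE 0.119, adjusted p = 0.00537), against -1.32, -1.10, -0.88 and -0.85 with all 6. Those not called included Hpd, Hgd, Fah, Kynu and Haao of the aromatic routes, Bckdha, Bckdhb, Dbt, Bcat2 and Mut of the branched-chain routes, and Agxt and Shmt1.

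**Figure D5:**
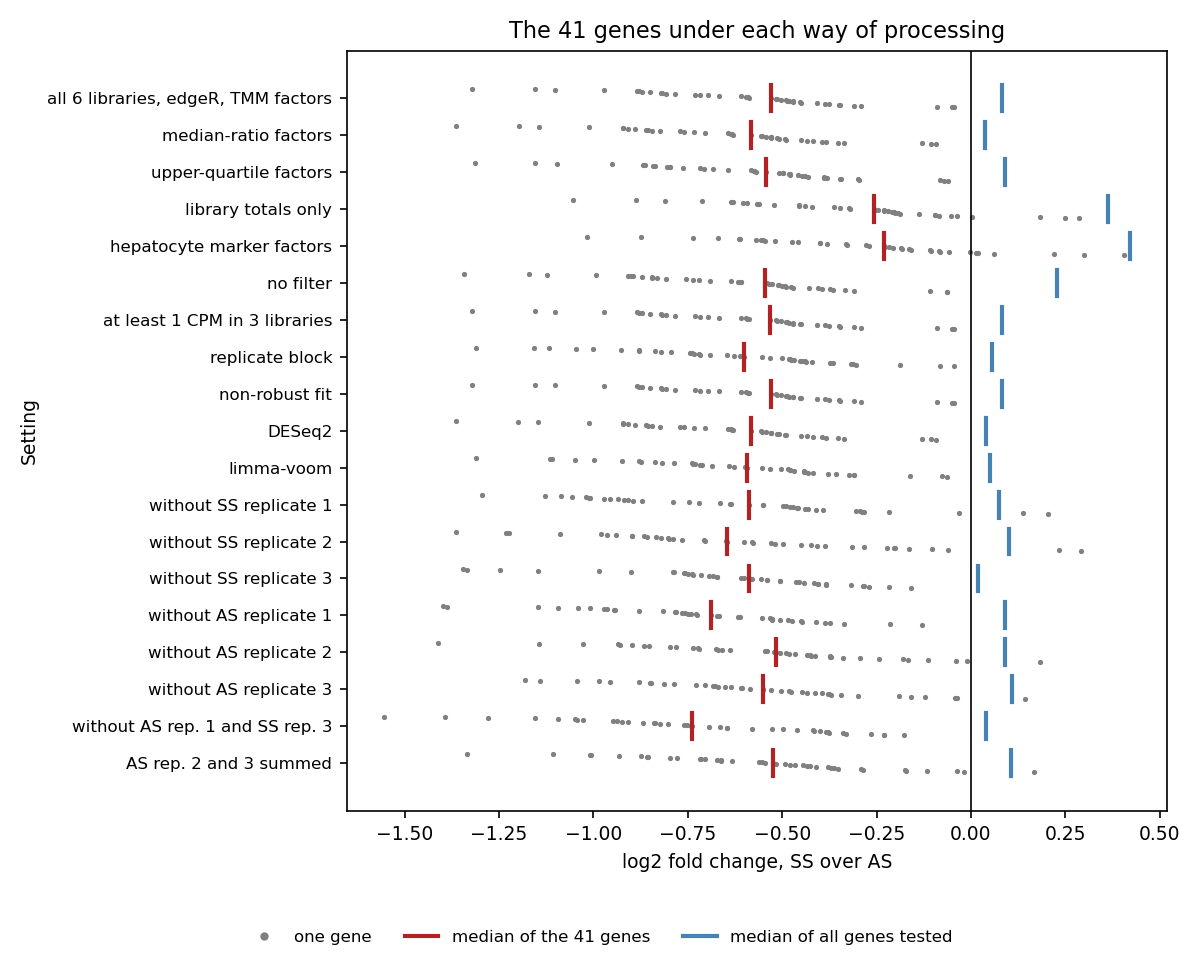
Each grey point is the log2 fold change of a gene, SS over AS, and each row a way of processing; the red line marks the median of the 41 genes and the blue line that of all genes tested. The red line lies left of the blue line in every row, and both lie further right with library totals and hepatocyte marker factors than in the other rows.

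Per kilobase of exon, the most abundant of the 41 was Gnmt, at 1306 CPM per kb in SS and 2411 in AS, which ranked 26 among 12528 genes with a length. Hpd, Mat1a, Tat and Oat followed, with Mat1a at 862 CPM per kb in SS and 1127 in AS and Oat at 574 CPM per kb in SS and 786 in AS. Sdsl and Sugct were among the least abundant per kilobase, Sdsl at 6.69 CPM per kb in SS and 10.1 in AS and Sugct at 5.98 CPM per kb in SS and 14.96 in AS. By place in the cell, the 18 mitochondrial enzymes had a median log2 fold change of -0.50 with 12 apart, and the 22 cytosolic enzymes -0.56 with 11 apart. Of all genes, 9.04% were apart in this way, and 31.3% of those of at least 100 CPM.

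Other enzymes of the same routes, 45 genes on a list of pathway partners, had a median log2 fold change of -0.47. By edgeR 0 were called, 39 had a lower fitted value in SS, and 14 were lower and 1 higher at an unadjusted p under 0.05. A lower fitted value was found in 43.7% of all genes and in 81.5% of those of at least 100 CPM. At that unadjusted p, 3.58% of all genes were lower. DESeq2 called 4 of the 45 lower (Aadat, Hibch, Hibadh and Suox) and 0 higher, where it called 0.737% of all genes lower. Every SS library lay below every AS library in 22 of the 45, against 9.04% of all genes and 31.3% of those of at least 100 CPM. The lowest p were those of Aadat, Hibch and Mccc2. Aadat, an aminotransferase of kynurenine and aminoadipate, had 59.8, 52.2 and 53.9 CPM in SS libraries, against 95.8, 129 and 116 CPM in AS libraries, with a log2 fold change of -1.04 (SE 0.231, adjusted p = 0.0752). Hibch, of valine breakdown, had 60.0, 60.8 and 58.0 CPM in SS libraries, against 91.9, 115 and 104 CPM in AS libraries, with -0.80 (SE 0.221, adjusted p = 0.154). Mccc2, of leucine breakdown, had 52.5, 60.2 and 46.2 CPM in SS libraries, against 84.3, 88.9 and 93.7 CPM in AS libraries, with -0.75 (SE 0.225, adjusted p = 0.191). The groups were apart in all of these. A higher fitted value in SS was found for Mtr (1.20), Acmsd (1.16), Mat2a (0.44), Dhtkd1 (0.39), Chdh (0.22) and Gpt2 (0.13), named with their log2 fold changes after these were seen. Acmsd, which diverts tryptophan carbons away from NAD, was the gene higher at an unadjusted p under 0.05, with 14.8, 29.4 and 37.7 CPM in SS libraries, against 11.6, 10.1 and 14.9 CPM in AS libraries and a log2 fold change of 1.16 (SE 0.361, adjusted p = 0.208).

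Of 10 regulators of hepatocyte genes, including Hnf4a, Cebpa, Nr3c1, Foxo1 and Ppara, 0 were called by edgeR or DESeq2, 0 reached an unadjusted p under 0.05 and 5 had a lower fitted value in SS, with a median log2 fold change of -0.01. Ppargc1a, a coactivator of the fasting response, had the lowest p, with 18.3, 10.1 and 29.9 CPM in SS libraries, against 7.60, 10.5 and 13.3 CPM in AS libraries and a log2 fold change of 0.89 (SE 0.409, adjusted p = 0.405). Nr1h4, the bile acid receptor FXR, stood at -0.35 (SE 0.229, adjusted p = 0.540) and Foxo1 at 0.37 (SE 0.260, adjusted p = 0.570).

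By edgeR, several markers of other cells were called higher in SS, where 0.911% of all genes were. The erythroid marker Klf1 went the other way, with a log2 fold change of -0.86 and no call. Cell cycle genes summed to 98.7 to 166 CPM in SS and 11.1 to 18.2 CPM in AS (7 of 10 called higher), erythroid genes to 247 to 480 against 44.8 to 63.0 (4 of 7 tested), monocyte and macrophage genes to 454 to 692 against 243 to 311 (5 of 10), stellate and fibroblast genes to 278 to 399 against 140 to 171 (3 of 9), and neutrophil genes to 20.97 to 83.3 against 3.60 to 6.56 (2 of 6 tested). Kupffer genes summed to 941 to 2316 CPM in SS and 757 to 1010 in AS (0 of 8 called by edgeR or DESeq2, 4 higher at an unadjusted p under 0.05), and cholangiocyte genes to 116 to 247 against 85.5 to 105 (0 of 4 tested by either tool, 1 at an unadjusted p under 0.05). The 1 was Spp1, which is also on the monocyte and macrophage list. It made up most of the cholangiocyte sum, with 219, 102 and 131 CPM in SS and 69.8, 95.7 and 85.2 in AS. Krt19, Epcam and Sox9 had unadjusted edgeR p of 0.661, 0.732 and 0.217. Hepatocyte markers had a median log2 fold change of -0.51 with 9 of 10 below 0, 0 called by either tool and 1 lower at an unadjusted p under 0.05, close to that of the 41, and their sums, 97596 to 154304 CPM in SS and 126530 to 196760 in AS, overlapped. Periportal markers had a median of -0.53 over 7 tested and pericentral markers 0.25 over 8. Of these, edgeR called 0 and DESeq2 called Cyp2f2 and Cyp2e1 lower, while 3 periportal and 2 pericentral markers were lower and 1 pericentral marker higher at an unadjusted p under 0.05. In these bulk samples, fewer hepatocytes and less enzyme RNA per hepatocyte cannot be told apart, and the part of these markers in the differences was not tested.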

How the data were processed

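RNA from liver was sequenced in 3 SS and 3 AS libraries, grouped by the genotype in the labels. For each library the authors deposited a table of unnormalized counts over 24421 genes. HISAT2, HTSeq and the mm10 build are named in the submitters' processing notes; versions, gene annotation and strand settings are not given in the sources used here. Records outside genes (66.6% to 78.5% of the records) were left out of library sizes, which ran from 6670011 to 13700194 gene reads. Reads are not unique molecules, so precision estimates within a library cover counting error only.

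Genes passing edgeR's filterByExpr (minimum count 10, minimum total 15) were tested with edgeR 4.0.16 in R 4.3.3: TMM factors, a robust quasi-likelihood fit, a two-sided F-test of SS against AS, and Benjamini-Hochberg adjustment over all 12622 genes. The SE was derived from the F statistic, and CPM used the same factors. Calls were made at adjusted p under 0.05. Alternatives were other scaling factors and filters, a replicate block, a non-robust fit, DESeq2 1.42.0, limma 3.58.1 (voom), leaving out libraries, and summing AS replicates 2 and 3. The scripts were tested on simulated data.

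The 41 genes, the pathway and cell type lists, the alternatives and the libraries left out together were chosen with earlier results of these data known. Every one of the 41 has its library values in the text. The rule for fuller treatment took the called gene and, per pathway, the gene with the largest log2 fold change and that with the highest mean CPM (19 genes); values of the other 22 were added after they were seen. Of other enzymes and regulators, the 3 with the lowest p were named. Gene positions, exon lengths and overlaps came from GENCODE M21 on the same mm10 build, and start regions from RefSeq on GRCm38.p6.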

Additional observations from a re-analysis of the deposited data

How the results depend on the processing

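With all 6 libraries, edgeR and TMM factors, 122 genes were called in all and 1 of the 41, with a median log2 fold change of -0.53 over the 41. Of the 41, 0 were called higher under any of the 18 alternatives. The number called lower was 0 with library totals, 0 with hepatocyte marker factors, 0 with limma-voom and 0 with AS replicates 2 and 3 summed. It was 2 with no filter (Sugct and Gldc), 7 with DESeq2 and 24 without both AS replicate 1 and SS replicate 3. In these settings 0.155%, 0.737% and 2.49% of all genes tested were called lower. Leaving out 1 library gave 0 to 3, the 3 being Ahcy, Sugct and Gldc without SS replicate 3, and 0 without any other library. Without SS replicate 3, 0.109% of all genes tested were called lower. Over all genes the calls in both directions came to 217 with no filter, 453 with DESeq2, 31 with limma-voom and 31 with the AS pair summed. They came to 662 without both libraries, and 22 to 99 with 1 library left out. The median of the 41 was -0.26 with totals, -0.23 with hepatocyte marker factors, -0.74 without both libraries, and -0.69 to -0.52 with 1 library left out (-0.69 without AS replicate 1). The cause of these shifts was not tested, and fits with libraries left out or summed also held fewer libraries.

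With the replicate number as a block, 460 genes were called in both directions, and 0.737% of genes tested were called lower. Of the 41, 3 were called lower (Sugct, Gldc and Amt). Same-numbered SS and AS libraries deviated together with correlations of 0.05, -0.12 and 0.19, and not every library correlated best with its own number, so the numbers were not taken as pairs.

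Log2 fold changes that turned positive were those of Tat (0.25 with totals, 0.30 with hepatocyte marker factors, 0.17 with the AS pair summed, and -0.69 to 0.23 with 1 library left out), Tdo2 (0.29, 0.40 and -0.98 to 0.29 for totals, hepatocyte marker factors and 1 library left out), Aass (0.0015 with totals and 0.062 with hepatocyte marker factors), Bcat2 (0.18 and 0.22 likewise), and Bckdhb (0.014) and Mut (0.019) with hepatocyte marker factors. The adjusted p of Sugct was 0.0922 with totals, 0.286 with hepatocyte marker factors, 0.0600 with limma-voom and 0.168 with the AS pair summed. Of the single-gene results over all settings, 678 kept their direction and side of the threshold, 34 gained a call, 9 lost it and 17 turned. The lowest count of any of the 41 in a library was 64, and what limits the number of calls was not tested.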

Other observations

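Of the cell types not described above, sinusoidal endothelial markers summed to 273 to 432 CPM in SS and 239 to 364 CPM in AS, with 0 of 7 called by edgeR, 1 higher at an unadjusted p under 0.05 and Lyve1 called higher by DESeq2. Lymphocyte markers summed to 7.26 to 17.3 CPM in SS and 3.11 to 5.48 CPM in AS, with 0 of 5 tested called by edgeR, 2 higher at an unadjusted p under 0.05 and Ms4a1 called higher by DESeq2. Of 5 pancreatic acinar markers, Cela1 had enough reads to test (521 in SS and 702 in AS over all libraries) and was not called by either tool. Ctrb1 had 13 reads in SS and 0 in AS, Cel 7 and 0, Pnlip 3 and 2, and Cpa1 0 in both.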
